A study of Mus musculus with 6 samples.

Results

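The 34 genes described here belong to the integrated stress response and to the amino acid supply that its main transcription factor, ATF4, controls. They were chosen by name: 8 stress transcription factors and early targets, 5 genes that act on the initiation factor eIF2 or on cap-dependent translation, 12 enzymes of amino acid synthesis and folate metabolism, and 9 amino acid transporters. Probe sets for 33 of the 34 were named by the platform annotation, out of 18193 genes so named, and Pycr1, an enzyme of proline synthesis, was not analysed here. Each gene was read from its probe set with the highest mean log2 signal. Of the 33, 29 passed the filter on dim probe sets, a geometric mean signal of 14.1, and were tested. The 4 below it were Cth, Bcat1, Slc7a3 and Slc7a11.

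The cells were HL-1, a contracting atrial cardiomyocyte line of mouse that was derived from a tumour driven by a viral oncogene and that can be passaged in culture. Confluent cultures were held for 8 hours either at 1% oxygen (hypoxia, 3 arrays) or at 21% oxygen (normoxia, 3 arrays). Both groups were the same line in the same growth conditions, and neither carried a further treatment in the labels. Total RNA was hybridised to 1-colour Affymetrix arrays. Since the labels do not say whether the arrays came from separate cultures, each p-value reflects no more than the scatter among these samples, part of which may be technical.

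In the integrated stress response, the kinases PERK, GCN2, PKR and HRI phosphorylate eIF2 when proteins misfold, amino acids run short, a virus enters or heme is scarce. General translation slows, while the ATF4 mRNA is translated more through small upstream reading frames in its leader, so that the amount of Atf4 mRNA alone does not report ATF4 activity. ATF4 then binds composite C/EBP-ATF elements, often with C/EBP partners, and raises genes for amino acid synthesis, uptake and tRNA charging. Severe hypoxia is one of the stresses known to activate PERK.

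The composite element that ATF4 binds is shown here for the members whose promoters held it. The 250 bases before the start of transcription were searched on both strands for TGATGNAA, with N any base, in RefSeq promoters of GRCm38.p6. Promoters were found for 27 of the 34 genes. A match was present in 5 of these 27 (18.5%), compared with 3.91% of all 27025 genes with a promoter in the table. By role there were 2 of 8 stress factors and early targets, 0 of 3 genes of eIF2 or cap-dependent translation, 2 of 10 synthesis enzymes and 1 of 6 transporters. The genes were listed as part of the ATF4 response, so these shares do not test a link to ATF4. The matching stretches follow 5′ to 3′ on the strand of the gene, with the match in capitals, which reads TTGCATCA where the element lies on the other strand.
Asns, chr6:7693210-7693258, minus strand: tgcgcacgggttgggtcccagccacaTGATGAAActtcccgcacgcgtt
Chac1, chr2:119351023-119351082, plus strand: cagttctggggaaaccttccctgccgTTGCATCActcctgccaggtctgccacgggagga
Nupr1, chr7:126625547-126625606, minus strand: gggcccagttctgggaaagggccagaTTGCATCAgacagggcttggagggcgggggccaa
Slc7a11, chr3:50443627-50443705, minus strand: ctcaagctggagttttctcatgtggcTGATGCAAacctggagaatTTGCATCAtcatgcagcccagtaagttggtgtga
Pycr1, chr11:120643818-120643877, minus strand: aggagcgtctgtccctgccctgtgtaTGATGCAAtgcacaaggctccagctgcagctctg
The match began 23 bases before the start in Asns, 193 in Chac1, 110 in Nupr1 and 103 in Pycr1, and Slc7a11 held 2 matches, at 66 and 47 bases. The remaining 22 promoters held none within this window, which says only that these letters are not there. The core of the hypoxia response element, ACGTG on either strand, was present in 8 of the 27 promoters (29.6%) and in 18.5% of all genes. Those 8 were Asns, Psph, Bcat1, Cbs, Aldh18a1, Ppp1r15a, Nupr1 and Slc3a2. A match is a description of the sequence and not a bound site.

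None of the 29 members tested passed the test of hypoxia against normoxia at an adjusted p under 0.05 (limma, Benjamini-Hochberg over all probe sets tested). Over all 11332 genes tested the same rule called 0.750%, with 0.662% higher and 0.0882% lower, so 0 of 29 lies near that background. At an unadjusted p under 0.05 there were 4 of 29 members, Cebpg higher and Eif2ak4, Phgdh and Slc6a9 lower, against 12.4% of all genes (6.13% higher and 6.30% lower). Among the probe sets that represent the members, the smallest adjusted p was 0.322, for Eif2ak4. A further probe set of Phgdh, a much brighter gene, had a smaller one, 0.290. The median log2 difference, hypoxia minus normoxia, was -0.07 over the 29 members and -0.04 over all genes, and the median size of the difference regardless of sign was 0.25 and 0.20. In the probe sets that represent the members, the 3 hypoxic arrays lay wholly above the 3 normoxic ones in 1, Cebpg, and wholly below in 1, Eif2ak4. Over all genes the groups did not overlap in 18.1%, 8.16% with hypoxia above and 9.91% with hypoxia below. With 3 arrays a group the smallest exact permutation p is 0.1. The limma fit combines each probe set's own variance with a prior estimated from all probe sets tested. In bulk RNA, fewer cells expressing a gene and less RNA per cell cannot be told apart.

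The intervals give, for each gene taken alone, a range for its log2 difference. They do not give the size of change that the adjusted test could miss. The 95% interval of the log2 difference, which is not adjusted for the number of genes, lay within -1 and 1 in 23 of the 29 members and in 74.2% of all genes. The upper end was under 1, a doubling, in 27 members, the exceptions being Trib3 and Cbs. The lower end was under -1 in Atf5, Chac1, Eif2ak4 and Slc7a5. For comparison, 9 of 10 oxygen-regulated targets of HIF rose on these arrays (Slc2a1, Bnip3, Egln3, Egln1, Ndrg1, Ldha, Pdk1, Ankrd37 and Ak4), with a median log2 difference of 2.36 over the 10. Vegfa, the tenth, had a log2 difference of 1.23 (adjusted p = 0.0924). Of the 9, 3 passed in every alternative (Slc2a1, Ankrd37 and Ak4) and 6 lost the call in at least 1. Egln1 and Ndrg1 did so on removing hypoxia 1, hypoxia 2 or normoxia 3, and Pdk1 on removing hypoxia 1. A fit with no trend in the variance ended the calls of these 3 and of Bnip3, Egln3 and Ldha, and the mean over probe sets those of Egln3 and Egln1, with adjusted p up to 0.157 among the 6 (Egln1). These 10 genes were listed with their response in these data already known and serve only as a scale.

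**Figure D1:**
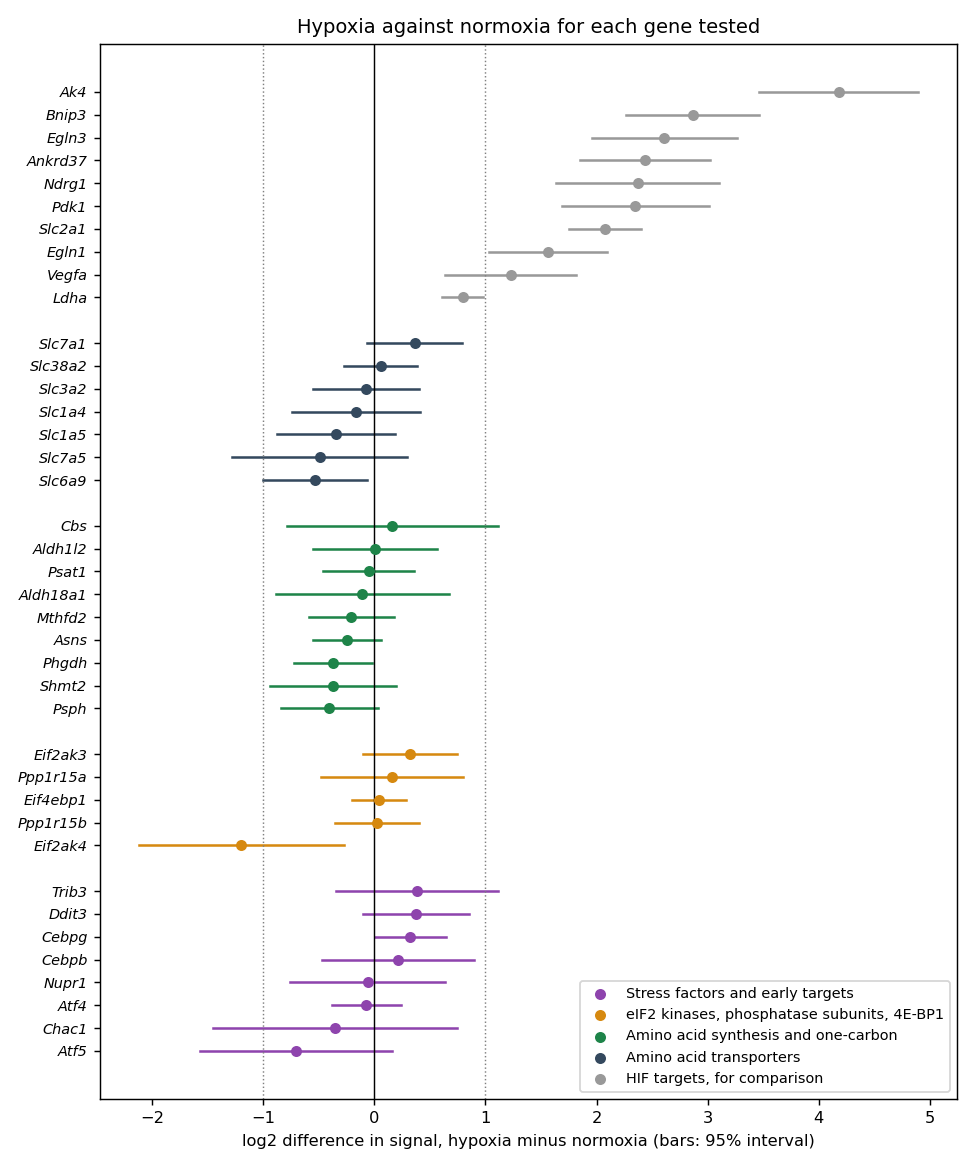
Log2 difference in signal, hypoxia minus normoxia, for the 29 members tested and 10 HIF targets; points are estimates, bars their 95% intervals and dotted lines mark -1 and 1. The members gather around 0 with a median of -0.07, and the 10 HIF targets lie to the right with a median of 2.36.

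Among the stress factors, the mRNA of Atf4 itself was measured with little spread. Its signal was 643.1, 537.1 and 566.7 in hypoxia replicates 1 to 3 and 605.7, 689.6 and 542.7 in normoxia replicates 1 to 3. The groups overlapped, and the log2 difference was -0.07 (SE 0.14, 95% interval -0.38 to 0.24, adjusted p = 0.887). Centring each array on its median, which moved all genes alike by 0.11, gave 0.04 for Atf4. Relative to the median of all genes the difference of Atf4 was -0.03, which such a shift cannot change. Over the alternatives that value ran from -0.15 with the mean of all probe sets to 0.064 with array weights. A further probe set of Atf4 gave -0.03.

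Ddit3 encodes CHOP, the transcription factor that links prolonged stress to cell death, and its signal was 245.9, 153.9 and 162.9 in hypoxia and 120.9, 155.8 and 149.9 in normoxia. Hypoxia replicate 1 stood above the other 5 arrays, which shared one range. The log2 difference was 0.38 (SE 0.21, interval -0.10 to 0.85, adjusted p = 0.566). Trib3, a pseudokinase induced by ATF4 and CHOP, had signals of 138.1, 84.1 and 67.3 in hypoxia and 46.1, 93.4 and 81.3 in normoxia. Here too the groups overlapped, with hypoxia replicate 1 highest and normoxia replicate 1 lowest, and the log2 difference was 0.39 (interval -0.35 to 1.12, adjusted p = 0.705). It was 0.094 with hypoxia replicate 1 removed and 0.080 with normoxia replicate 1 removed. The other probe set of Trib3 read 172.8, 66.6 and 117.0 against 46.3, 74.7 and 55.3 and gave a log2 difference of 0.94 (adjusted p = 0.342), which was the widest gap between probe sets of any member, 0.55.

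Chac1 encodes an enzyme that degrades glutathione and is a sensitive marker of ATF4 activity. Its signal was 9.8, 26.9 and 14.2 in hypoxia and 14.1, 29.9 and 18.4 in normoxia, near the level of the filter, and the log2 difference of -0.35 had a wide interval (-1.45 to 0.75, adjusted p = 0.83). Atf5, a relative of ATF4 that is also controlled at translation, read 138.2, 193.0 and 83.7 in hypoxia and 118.0, 317.1 and 259.2 in normoxia. Hypoxia replicate 3 and normoxia replicate 1 were the low arrays of their groups, and the groups overlapped. The log2 difference was -0.71 (SE 0.39, interval -1.57 to 0.16, adjusted p = 0.552).

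Of the C/EBP factors, Cebpg, which forms dimers with ATF4, had signals of 345.1, 295.1 and 334.8 in hypoxia and 237.8, 276.4 and 264.5 in normoxia, a separation of the groups by a small margin. Its log2 difference of 0.32 (SE 0.14) had an unadjusted p = 0.0486 and an adjusted p = 0.454, and its 2 other probe sets gave 0.26 and -0.03. Cebpb, a C/EBP factor induced in many stresses, read 272.2, 404.9 and 188.7 against 159.7, 287.8 and 290.7 (log2 difference 0.21, adjusted p = 0.834), and the sign turned without hypoxia replicate 2 or without normoxia replicate 1. Nupr1, a small chromatin-associated stress protein whose promoter holds the element shown above, had 292.0 in hypoxia replicate 1 and between 113.4 and 190.4 in the other 5 arrays (log2 difference -0.06, adjusted p = 0.958).

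The genes that act on eIF2 were split between kinases and phosphatase subunits. Eif2ak4 encodes GCN2, the kinase that senses uncharged tRNA. Its signal was 20.4, 14.9 and 8.6 in hypoxia and 25.3, 31.1 and 39.9 in normoxia. The groups did not overlap, and the log2 difference of -1.20 was the largest of any member (SE 0.41, interval -2.12 to -0.27, unadjusted p = 0.0162, adjusted p = 0.322). These signals are near the filter, which the gene passed through its normoxic values, and the hypoxic mean was 14.6 ± 5.90 (SD, n = 3). The other probe set of Eif2ak4 lay below the filter. Eif2ak3, which encodes PERK, the kinase of the endoplasmic reticulum, read 120.3, 124.5 and 98.8 in hypoxia and 84.4, 83.2 and 107.5 in normoxia (log2 difference 0.32, interval -0.10 to 0.75, adjusted p = 0.579).

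Ppp1r15a encodes GADD34, the stress-induced subunit that directs a phosphatase to eIF2 and so restores translation. Its signal was 153.1, 139.4 and 116.1 in hypoxia, inside the wider span of 79.6, 119.3 and 187.0 in normoxia (log2 difference 0.16, adjusted p = 0.871). Ppp1r15b, the constitutive counterpart, had a signal of 411 ± 60.9 (SD, n = 3) under hypoxia and 405 ± 67.3 under normoxia (log2 difference 0.02, adjusted p = 0.971). Eif4ebp1 encodes 4E-BP1, which holds back cap-dependent translation when mTORC1 is inactive and is itself an ATF4 target. Its signal was 2038 ± 177 and 1974 ± 148, and its interval was the narrowest of this group, -0.20 to 0.29 on the log2 scale.

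The enzymes of amino acid synthesis leaned lower, with none called. Of the 9 tested, 7 had a log2 difference below 0, with a median of -0.21, beside 55.6% of all genes below 0 and a median of -0.04. Centring each array on its median moved every gene by the same 0.11, which left 5 of 9 below 0. The gap between the median of the enzymes and that of all genes was -0.17, which such a shift cannot change. Over the alternatives this gap ran from -0.33 without hypoxia replicate 1 to -0.01 without hypoxia replicate 3. Asns, which makes asparagine and is the textbook ATF4 target, read 974.1, 792.2 and 735.3 in hypoxia and 899.7, 1015.0 and 1037.6 in normoxia. Hypoxia replicate 1 fell inside the normoxic range and the other 2 below it (log2 difference -0.25, SE 0.14, interval -0.55 to 0.06, adjusted p = 0.559). The second probe set of Asns gave -0.31.

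Serine is made from a glycolytic intermediate in 3 steps by Phgdh, Psat1 and Psph. Phgdh, the first step, had signals of 1066.5, 859.3 and 876.7 in hypoxia and 978.0, 1404.2 and 1261.6 in normoxia. Only normoxia replicate 1 lay within the hypoxic range (log2 difference -0.37, SE 0.16, unadjusted p = 0.0404, adjusted p = 0.43). Its 3 other probe sets gave -0.56, -0.49 and -0.34. In the one at -0.49 all hypoxic arrays lay below all normoxic ones (unadjusted p = 0.0125, adjusted p = 0.290, limma). All 4 are of the x_at type, which may also bind related transcripts, and all were read from the same arrays, so their agreement is not a replicate.

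Psat1, the second step, read 1112.7, 738.0 and 667.2 in hypoxia and 797.9, 892.0 and 851.5 in normoxia, so that 2 hypoxic arrays lay below and 1 above all of normoxia (log2 difference -0.05, adjusted p = 0.943). Psph, the last step, read 452.0, 257.7 and 320.9 against a tight 441.4, 449.5 and 435.4. Its log2 difference was -0.40 (SE 0.20, interval -0.84 to 0.03, adjusted p = 0.501). In all 3 steps hypoxia replicate 1 was the highest of its group. The same held in 8 of the 9 synthesis enzymes and 19 of the 29 members tested, beside 27.4% of all genes.

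Shmt2, Mthfd2 and Aldh1l2 carry serine-derived carbon through mitochondrial folate. Shmt2 read 399.2, 354.1 and 230.6 in hypoxia and 300.8, 441.0 and 534.6 in normoxia (log2 difference -0.37, adjusted p = 0.632), and its 3 other probe sets gave values between -0.40 and -0.33. Mthfd2 had a mean signal of 706 ± 152 in hypoxia and 805 ± 82.0 in normoxia (log2 difference -0.21, adjusted p = 0.696). Its second probe set gave 0.04, the opposite sign. For Aldh1l2, which removes the formyl group from folate, the means were 216 ± 72.0 and 210 ± 42.4, and the log2 difference was 0.00 (interval -0.55 to 0.56).

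Aldh18a1 makes the first committed intermediate of proline and showed one of the wider spans within a group, 786.5, 668.9 and 296.9 in hypoxia and 402.5, 757.2 and 640.0 in normoxia (log2 difference -0.11, adjusted p = 0.934). Hypoxia replicate 3 and normoxia replicate 1 were the low arrays. Cbs, the first enzyme of transsulfuration, was dim, at 29.0 ± 10.9 and 26.8 ± 12.9 (log2 difference 0.16, interval -0.79 to 1.11). Cth, the second enzyme of that pathway, ranged from 1.6 to 14.6 over the 6 arrays, and Bcat1, the cytosolic aminotransferase of branched-chain amino acids, from 8.8 to 14.5. Both were below the filter and were not tested.

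**Figure D2:**
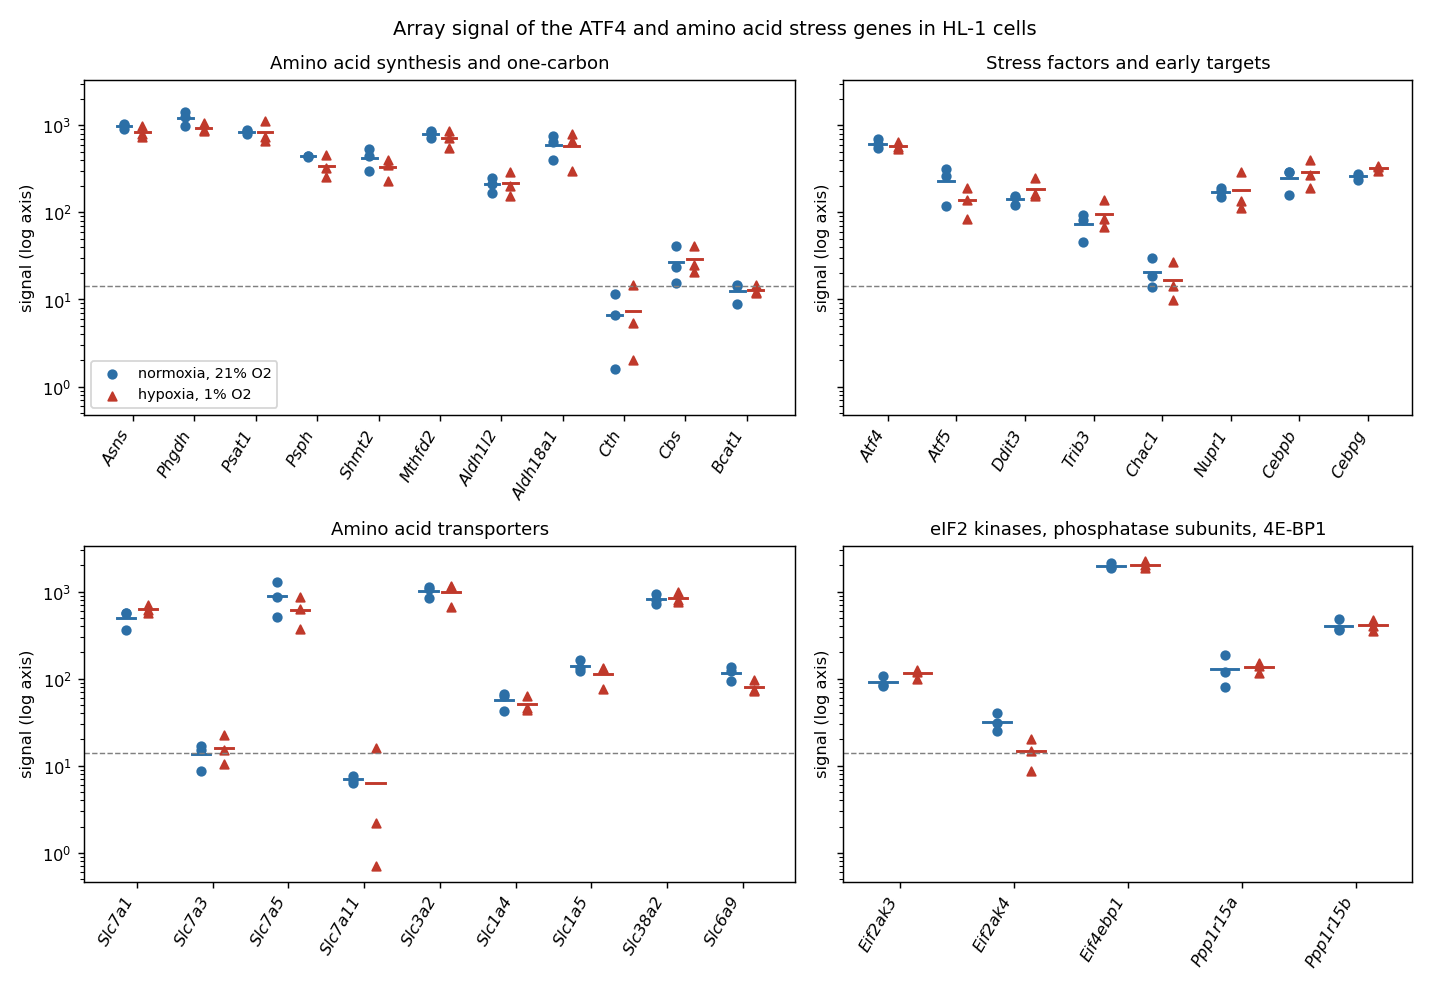
Signal on a log axis for the 33 members on the arrays, by role; each point is 1 array, circles are normoxia and triangles hypoxia, short lines are group means and the dashed line is the level of the filter, 14.1. The groups overlap in nearly every gene. In the probe sets shown, Cebpg and Eif2ak4 are the 2 tested members in which they do not.

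None of the transporters was called. Of the 7 tested, 5 were below 0 and 2 above, with a median of -0.17, beside 55.6% of all genes below 0 and a median of -0.04. Slc7a5 and Slc3a2 encode the light and heavy chain of LAT1, the exchanger that brings leucine and other large neutral amino acids into the cell. Slc7a5 read 626.0, 863.9 and 372.0 in hypoxia and 511.4, 1271.2 and 857.9 in normoxia (log2 difference -0.49, SE 0.35, interval -1.28 to 0.30, adjusted p = 0.65). Slc3a2 read 1113.5, 1159.9 and 666.1 against 835.6, 1074.9 and 1116.8 (log2 difference -0.07, adjusted p = 0.924). The sign of Slc3a2 turned in 4 alternatives, among them median centring (0.037) and leaving out hypoxia replicate 3 (0.18). In both chains hypoxia replicate 3 was the lowest of its group and normoxia replicate 1 the lowest of the other.

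Slc6a9, the glycine transporter GlyT1, read 95.5, 73.3 and 72.4 in hypoxia and 93.2, 135.8 and 121.0 in normoxia. Hypoxia replicate 1 lay just above normoxia replicate 1, and the other hypoxic arrays below all of normoxia (log2 difference -0.53, SE 0.21, unadjusted p = 0.0295, adjusted p = 0.395). Its other probe set gave -0.61 (adjusted p = 0.37), with all hypoxic arrays below all normoxic ones. Slc7a1, the cationic amino acid transporter CAT1, leaned the other way, with 565.3, 617.2 and 694.7 in hypoxia against 570.3, 357.0 and 560.0 in normoxia (log2 difference 0.36, interval -0.07 to 0.79, adjusted p = 0.537). A second probe set of Slc7a1 gave -0.06, so its 2 kept probe sets did not share the lean.

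Slc38a2, the sodium-coupled neutral transporter SNAT2 that amino acid starvation induces, had mean signals in hypoxia and normoxia of 849 ± 117 and 816 ± 108 (log2 difference 0.06, interval -0.27 to 0.39, adjusted p = 0.914). Slc1a5, the glutamine transporter ASCT2, had 112 ± 30.6 and 140 ± 22.1 (log2 difference -0.35, adjusted p = 0.636), and Slc1a4, its relative ASCT1, 50.7 ± 10.5 and 57.3 ± 13.3 (log2 difference -0.17, adjusted p = 0.85). Slc7a11, the cystine importer whose promoter holds 2 elements, ranged from 0.7 to 15.9, and Slc7a3, a further cationic transporter, from 8.6 to 22.6. Neither reached the filter, and no difference is given.

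Further probe sets could be used as a second reading of the same RNA. A second kept probe set existed for 17 of the 29 members tested, 28 probe sets in all, and 0 of these passed at an adjusted p under 0.05, with 4 at an unadjusted p under 0.05, beside 10.9% of all 22518 probe sets tested. They had the same sign as the representative probe set in 19 cases and the opposite sign in 9. The 9 belonged to Nupr1 (0.14), Cebpg (-0.03), Eif4ebp1 (-0.13), Ppp1r15b (-0.21), Mthfd2 (0.04), Aldh18a1 (0.11), Slc7a1 (-0.06), Slc1a4 (0.21) and Slc38a2 (-0.08). The median gap between the pair of values was 0.13 log2. The groups did not overlap in a further kept probe set of Phgdh and of Slc6a9, with hypoxia below, and of Eif4ebp1, with hypoxia above. Over all genes they did not overlap in 18.1%.

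**Figure D3:**
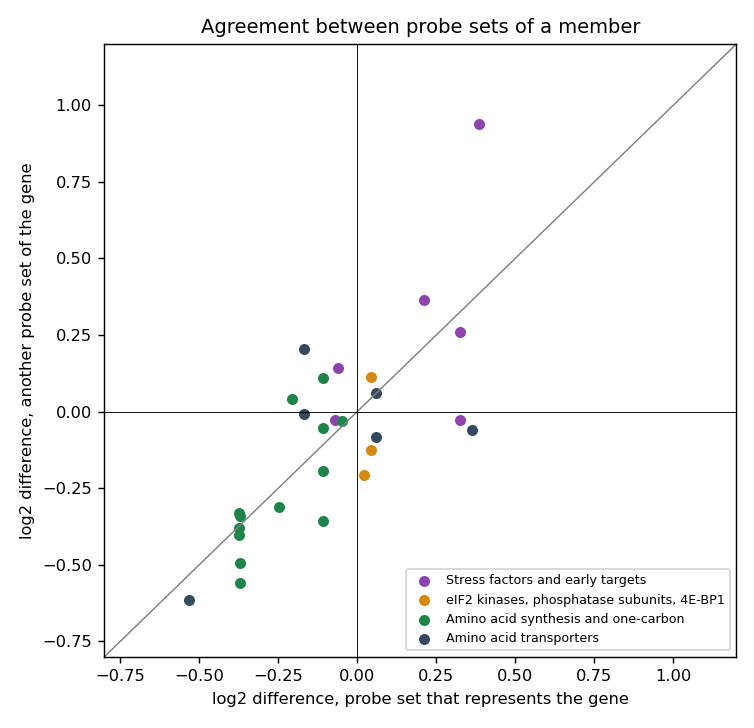
Log2 difference of each further kept probe set of a member (vertical) against that of the probe set that represents the gene (horizontal), with the line of equality; 28 points from 17 genes. The 19 points with the same sign lie to the lower left and upper right of the 0 lines, and the point farthest from the line is Trib3 at 0.39 and 0.94.

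The members also varied together between arrays of the same group. In hypoxia replicate 3 the median member lay 0.29 log2 under its own mean over the 6 arrays (a deviation of -0.29), and 18 of 29 members were lowest of the 3 hypoxic arrays there, compared with 37.4% of all genes. In normoxia replicate 1 the median deviation was -0.17, and 21 of 29 were lowest of their group, compared with 38.4% of all genes. In hypoxia replicate 1 the median deviation was 0.16 and 19 of 29 were highest of their group, compared with 27.4%. The median over all genes tested stayed between -0.02 and 0.04 in every array. The stress factors were lowest in normoxia replicate 1 in 7 of 8 cases, and the synthesis enzymes were highest in hypoxia replicate 1 in 8 of 9.

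**Figure D4:**
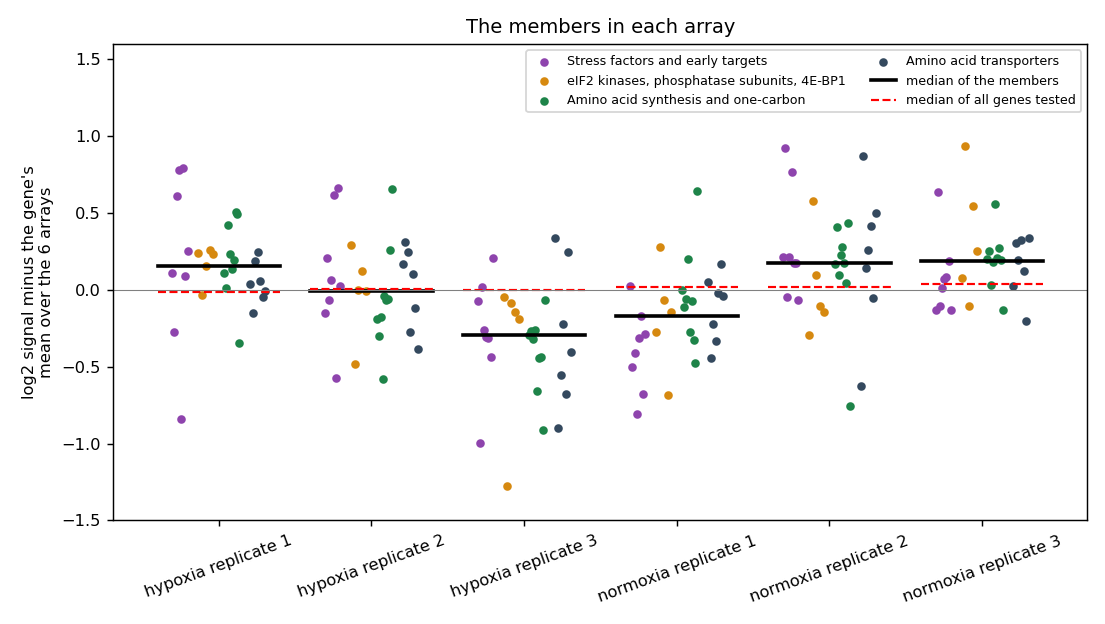
Log2 signal of each tested member minus its mean over the 6 arrays, by array and coloured by role; black lines are the median of the 29 members and red dashed lines that of all genes. Hypoxia replicate 3 (-0.29) and normoxia replicate 1 (-0.17) sit low and hypoxia replicate 1 (0.16) and normoxia replicates 2 (0.18) and 3 (0.19) sit high.

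Leaving out hypoxia replicate 3 and normoxia replicate 1 together, a choice made after these values were seen, again gave 0 members called; the median of the members was then -0.02 and 5 of 9 synthesis enzymes were below 0. Without hypoxia replicate 1 alone, 8 of 9 were below 0, with a median of -0.36, and without hypoxia replicate 3 alone 5 of 9, with a median of -0.04. The size of the lean of these enzymes thus varied with the arrays included. With array weights, which removed no array, 5 of 9 were below 0. What lay behind the lean was not tested. Removing 1 array moved the log2 difference by more than 1.5 times or turned its sign in 24 of the 29 members; the other 5 were Cebpg, Eif2ak3, Eif2ak4, Phgdh and Slc6a9. Atf5 ran from -1.13 without normoxia replicate 1 to -0.38 without hypoxia replicate 3, Slc7a5 from -0.83 to -0.16 and Shmt2 from -0.60 to -0.14 on removing the same arrays. Ddit3 was lowest without hypoxia replicate 1 (0.16) and Slc7a1 without normoxia replicate 2 (0.14). Chac1 ran from -0.75 without hypoxia replicate 2 to -0.018 without hypoxia replicate 1, and Psph from -0.62 without hypoxia replicate 1 to -0.22 without hypoxia replicate 2. Without hypoxia replicate 3, the difference was -0.16 for Asns, -0.039 for Mthfd2 and -0.094 for Slc1a5.

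Median signal per array ranged from 15 to 19, and the lowest correlation of log2 signal between any 2 arrays was 0.932. All 10 cardiomyocyte markers passed the filter, with summed signals of 34677 to 37979 in hypoxia and 36350 to 38164 in normoxia. Of markers of other cells, 3 of 8 fibroblast (sums 133 to 254 and 153 to 161), 1 of 6 endothelial (72.4 to 136 and 91.1 to 117) and 3 of 6 macrophage genes (96.3 to 137 and 85.8 to 135) passed it. Smooth muscle markers did so in 4 of 5 cases (12177 to 15120 and 11450 to 13338), with Myh11, the defining myosin, below it. No marker was called, but some separated the groups. At an unadjusted p under 0.05 there were 3 of 10 cardiomyocyte, 2 of 4 smooth muscle and 1 of 3 macrophage markers tested, beside 12.4% of all genes. The groups did not overlap for Nppa (log2 difference 0.76, adjusted p = 0.24), Myl4 (-0.12, adjusted p = 0.639), Tnni3 (-0.37, adjusted p = 0.113), Tagln (0.37, adjusted p = 0.283), Cnn1 (0.49, adjusted p = 0.347) and Cd68 (1.14, adjusted p = 0.157). Over all genes the groups did not overlap in 18.1%. The part of these genes in the members' values was not tested.

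The rest of the pathway was read from lists outside the 34 genes, chosen with results of these data known. Of 19 cytosolic aminoacyl-tRNA synthetases tested, a class of ATF4 targets, 0 passed at an adjusted p under 0.05 and 0 at an unadjusted p under 0.05, with 10 above and 9 below 0 and a median of 0.05. Gars1 had a log2 difference of -0.24 (adjusted p = 0.484) and Sars1 of -0.05 (adjusted p = 0.933). All 19 intervals lay within -1 and 1. Of 13 further genes around eIF2, namely 2 eIF2 kinases, subunits of eIF2 and of its exchange factor eIF2B, the phosphatase subunit Ppp1cc and the regulators Gcn1, Impact and Dele1, 0 passed and 1 had an unadjusted p under 0.05, with a median of -0.0020. Eif2s2 had a log2 difference of 0.04 and Ppp1cc of 0.07. Over all genes 12.4% had an unadjusted p under 0.05, and the median was -0.04.

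Among 18 other genes reported as ATF4 targets, 3 rose and 0 fell, beside a background of 0.750% called in either direction, and the median was 0.02. At an unadjusted p under 0.05 there were 5 of 18 (27.8%), 4 higher and 1 lower, beside 12.4% of all genes. Vldlr, a lipoprotein receptor, rose from 182.3, 270.8 and 198.3 in normoxia to 940.7, 670.3 and 1168.7 in hypoxia, a log2 difference of 2.08 (SE 0.22, adjusted p = 0.0025). Ddit4, which encodes the mTORC1 inhibitor REDD1, rose from 122.1, 116.0 and 119.3 to 376.7, 282.1 and 230.0, or by 1.28 (SE 0.19, adjusted p = 0.0186). Cdkn1a, the cell cycle inhibitor p21, rose by 1.08 (adjusted p = 0.0262). All 3 also have regulators other than ATF4, and Vldlr and Ddit4 are known HIF targets. The call of Ddit4 was lost when an array was removed: adjusted p = 0.109 with hypoxia replicate 1 removed, 0.0772 with hypoxia 2, 0.0735 with normoxia 2 and 0.102 with normoxia 3, in a range over all alternatives of 0.00233 to 0.118. That of Cdkn1a was lost on removing hypoxia 1 (adjusted p = 0.189), hypoxia 2 (0.107) or normoxia 3 (0.144), in a range of 0.00121 to 0.190. A fit with no trend in the variance ended all 3 calls, Vldlr with an adjusted p = 0.0673. Got1, the cytosolic aspartate aminotransferase, had a log2 difference of -0.50 (adjusted p = 0.0548, range 0.0123 to 0.372), and Map1lc3b, an autophagosome protein, of 0.01.

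Of 14 other enzymes of serine, glycine, proline and folate metabolism, 1 rose and 0 fell, beside 0.750% of all genes called, with a median of -0.10. At an unadjusted p under 0.05 there were 4 of 14 (28.6%), 2 higher and 2 lower, beside 12.4% of all genes. Mthfd1l, which makes formate in mitochondria at the step after Mthfd2, rose from 120.1, 133.0 and 126.0 in normoxia to 338.4, 270.3 and 216.7 in hypoxia. The log2 difference was 1.10 (SE 0.19, interval 0.68 to 1.52, adjusted p = 0.0336). The call was lost on removing hypoxia 1 (adjusted p = 0.186), hypoxia 2 (0.127), normoxia 1 (0.055), normoxia 2 (0.102) or normoxia 3 (0.172), with the replicate number as a block (0.0725) and with no trend in the variance (0.143), in a range over all alternatives of 0.0054 to 0.186. The difference itself stayed between 0.94 and 1.26, and all 3 hypoxic arrays lay above all 3 normoxic ones. Dld had a log2 difference of -0.26 and Oat of -0.14.

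Of 15 other amino acid transporters, 0 passed and 2 (13.3%) had an unadjusted p under 0.05, both lower. Over all genes 12.4% did, 6.30% of them lower in hypoxia. The median of these transporters was -0.20, with 11 of 15 below 0, beside a median of -0.04 and 55.6% below 0 over all genes. Slc7a6 had a log2 difference of -0.05 and Slc36a4 of 0.12.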

How the data were processed

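RNA of HL-1 cells was measured on 6 Affymetrix arrays, 3 in hypoxia and 3 in normoxia by the labels' titles. The deposited table holds 1 linear intensity per probe set and array, made by the authors with MAS5 per the submitters' processing notes (settings not given in the sources used here). After trimming 2% from both tails every array averaged 99.5, and none was rescaled. Values of 0, of which there were 10, took the smallest positive signal, 0.1, and log2 was taken. Of 45037 probe sets, 22518 with a mean log2 signal above the median were tested with limma 3.58.1 in R 4.3.3 (lmFit, eBayes with a trend, two-sided), adjusted by Benjamini-Hochberg over all of them and called under 0.05; the procedure was tested on simulated data. Genes were named from the platform annotation (34945 probe sets with 1 symbol, 932 with several, 9160 with none), so 11332 genes were tested. The number of arrays limits the precision. The members and all lists were chosen with earlier results of these data known. All members are named; of the other lists, the genes that passed and the 2 with the highest signal that did not. Alternatives covered normalization, an offset, the filter, the variance model, weights, the replicate block, the choice of probe set and each array left out.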

Additional observations from a re-analysis of the deposited data

How the results depend on the processing

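In all 18 fits, 17 of them alternatives, 0 members were called higher and 0 lower; the smallest adjusted p of any member was 0.0773 (Atf5, without hypoxia replicate 3 and normoxia replicate 1, an alternative chosen after seeing the data). Of the 29 members, 16 kept their sign in every alternative that tested them and 13 did not, all of the latter with a main difference of at most 0.21 in size; the cause was not tested. With median centring, which moved all genes alike by 0.11, the log2 difference was 0.040 for Atf4, 0.050 for Nupr1, 0.062 for Psat1, 0.0039 for Aldh18a1, 0.037 for Slc3a2, 0.065 for Sars1 and 0.064 for Slc7a6. With array weights it was 0.020 for Atf4, 0.11 for Nupr1, -0.038 for Ppp1r15a, -0.0062 for Ppp1r15b, 0.070 for Psat1, 0.014 for Aldh18a1 and 0.0046 for Sars1. With the mean of all probe sets it was 0.041 for Nupr1, -0.093 for Ppp1r15b, 0.010 for Slc1a4, -0.036 for Ppp1cc and -0.31 for Map1lc3b. With quantile normalization it was -0.029 for Eif4ebp1, -0.033 for Eif2s2, -0.059 for Ppp1cc and -0.093 for Map1lc3b. With arrays left out it ran from -0.15 to 0.018 for Atf4, from -0.47 to 0.21 for Nupr1, from -0.073 to 0.48 for Cebpb, from -0.022 to 0.11 for Eif4ebp1, from -0.14 to 0.47 for Ppp1r15a, from -0.088 to 0.16 for Ppp1r15b, from -0.27 to 0.099 for Psat1 and from -0.25 to 0.22 for Aldh1l2. It ran from -0.38 to 0.32 for Aldh18a1, from -0.17 to 0.60 for Cbs, from -0.22 to 0.18 for Slc3a2, from -0.051 to 0.16 for Slc38a2, from -0.16 to 0.10 for Sars1, from -0.055 to 0.094 for Map1lc3b, from -0.18 to 0.053 for Slc7a6 and from -0.013 to 0.25 for Slc36a4. Over all genes, 75 were called higher and 10 lower, against 113 and 4 with median centring, 7 and 2 without a trend in the variance, and 197 and 80 with array weights. With arrays left out the count ran from 22 to 185 higher and from 1 to 87 lower. The labels do not say whether same-numbered arrays are paired. Same-numbered arrays had correlations of deviations from their group means of -0.08, 0.21 and -0.14. Over all pairs of a hypoxic and a normoxic array these ran from -0.30 (hypoxia 2 with normoxia 1) to 0.32 (hypoxia 3 with normoxia 1). With 3 arrays a group such values cannot decide whether the arrays are paired. With the replicate number as a block, 61 genes were called higher and 2 lower. Chac1, Cbs and Eif2ak4, near the filter, had the widest intervals among members, with Atf5, and 4 members lay below it.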

Other observations

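The genes in this paragraph lie outside the 34, did not pass the test, and were chosen after their values were seen. Slc1a3, the glial and cardiac glutamate transporter GLAST, read 48.9, 44.0 and 38.1 in hypoxia and 84.4, 103.7 and 89.0 in normoxia (log2 difference -1.08, SE 0.20, adjusted p = 0.0534, limma). Slc7a7, the light chain that exports cationic amino acids with Slc3a2, read 64.9, 60.6 and 69.5 against 107.2, 124.9 and 139.2 (log2 difference -0.92, SE 0.18, adjusted p = 0.0627). In both, the groups did not overlap. Glul, which makes glutamine, read 190.0, 169.1 and 209.8 against 159.9, 127.0 and 144.3 (log2 difference 0.40, adjusted p = 0.425). Eif2b4, a subunit of the eIF2 exchange factor, had a log2 difference of -0.46 (adjusted p = 0.349). Atf3, a stress factor often induced with Ddit3, had a log2 difference of 0.68 (adjusted p = 0.434) with overlapping groups.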
